A study of Mus musculus with 4 samples.

Results

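The probe sets described here are those whose reading cannot be given to a single gene. On the array, a probe set is a group of short DNA probes summarised into 1 expression value. The platform's annotation paired 1881 of the 28371 probe sets with at least 2 different gene symbols or Entrez gene identifiers, and these 1881 were taken as they are. They were chosen from the annotation alone, without any measured value. A further 21158 probe sets had 1 gene and 5332 had none listed. Of the shared probe sets, 1309 carried 2 symbols, 456 carried 3 to 5, 115 carried 6 or more, and the largest number on 1 probe set was 19.

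The cells were alveolar macrophages sorted by flow cytometry from the lungs of adult C57BL/6 mice, and the series asks what the nuclear receptor PPARγ controls in their identity. Both groups carried floxed alleles of Pparg. The WT group (Pparg fl/fl) had no Cre, and the KO group (CD11c-Cre/Pparg fl/fl) expressed Cre recombinase from the CD11c promoter, which is also active in dendritic cells and other CD11c+ cells. Each group had 2 Affymetrix arrays, and each array held RNA of cells pooled from 2 mice, so the p-values below measure the spread between 2 pools per group. The sort took CD45+, CD11c-high, autofluorescent, Siglec-F+ cells, CD11b-low in WT mice and CD11b-high in KO mice. The labels call the WT cells mature and the KO cells arrested and immature.

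Genes come to share a probe set in several ways. Recently duplicated genes, such as the clustered histone genes, the kallikreins or the paired receptors of innate immune cells, differ by so few bases that a short probe binds every copy. Other neighbours are unrelated in sequence but overlap on the chromosome, often with their ends running past each other on opposite strands, and a probe in the overlap belongs to both. A processed pseudogene or a small RNA inside its host transcript gives another kind. In each case a changed value says that at least 1 of the genes may have changed, and does not say which.

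A pair of near-identical copies shows what such sharing looks like. Pilrb1 and Pilrb2 encode activating receptors of myeloid cells. The 250 bases before their annotated starts (RefSeq, GRCm38.p6, read on the gene strand, minus for both) lie at chr5:137858050-137858299 for Pilrb1 and chr5:137871759-137872008 for Pilrb2. They were 98.4% identical over the compared window, and the 4 bases that differ are in capitals.
Pilrb1: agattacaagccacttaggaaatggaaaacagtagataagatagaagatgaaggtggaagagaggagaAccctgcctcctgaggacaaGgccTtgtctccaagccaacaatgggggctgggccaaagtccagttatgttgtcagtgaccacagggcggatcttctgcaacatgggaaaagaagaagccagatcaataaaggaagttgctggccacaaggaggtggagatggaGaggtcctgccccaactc
Pilrb2: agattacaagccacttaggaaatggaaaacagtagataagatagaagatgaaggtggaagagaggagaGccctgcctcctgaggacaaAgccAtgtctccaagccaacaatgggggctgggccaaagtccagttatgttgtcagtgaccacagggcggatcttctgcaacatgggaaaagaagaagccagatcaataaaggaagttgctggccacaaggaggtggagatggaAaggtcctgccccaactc

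Across 156 pairs of genes with like names on 1 probe set, the identity of these upstream windows had a median of 62.93%, and it was above 80% in 54 pairs. Across 282 pairs with unlike names the median was 46.53%, and 13 pairs were above 80%. Pairs whose windows overlap on the chromosome were not left out. Mrps6 and Slc5a3, for example, start 14 bases apart on the same strand. Raet1e and Raet1d, ligands of a receptor on natural killer cells, reached 97.22%. The interferon-induced Oas1a and Oas1g reached 82.81%, and the ribonucleases Rnaset2a and Rnaset2b 69.15%. The identity of the transcripts, where the probes lie, was not computed.

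MicroRNAs sit on shared probe sets because the hairpin lies within a longer host transcript. Of 46 symbols on shared probe sets that begin with Mir and a number, host genes such as Mir22hg included, 37 had a mature sequence in RefSeq. The mature sequences of those on the 3 called probe sets of this kind are shown with the seed, bases 2 to 8, in capitals (RefSeq, GRCm38.p6). They lie at chr2:122640814-122640837 (plus strand) for miR-147-5p, chr10:76207333-76207354 (minus strand) for miR-678, chr11:75463734-75463755 for miR-22-5p and chr11:75463772-75463793 for miR-22-3p (both plus strand). Whether a probe set reads the hairpin or the longer transcript is not known here.
miR-147-5p: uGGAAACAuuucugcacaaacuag
miR-678: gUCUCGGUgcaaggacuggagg
miR-22-5p: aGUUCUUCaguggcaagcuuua
miR-22-3p: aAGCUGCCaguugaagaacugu
The 4 seeds differed from each other.

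The arrays were close within a group (r = 0.995 between the WT arrays and 0.996 between the KO arrays) and less so between groups (0.974 to 0.980). The targeted gene, Pparg, read 9.69 and 9.75 in WT and 9.59 and 9.73 in KO, and since the files do not place its probes against the floxed exons, this reading checks nothing. All 7 alveolar macrophage markers that were measured had means above the array median of 3.14 in both groups, and Siglecf and Mrc1 were lower in KO. The difference was -3.27 for Siglecf and -0.44 for Mrc1. Marco and Fabp4 differed by -2.62 and -2.07 and were not called. In KO, Marco read 3.04 and 3.37, near the median, and Fabp4 read 4.19 and 4.45. The mean over the list of markers ran from 2.94 to 3.15 for B cells, 2.28 to 2.64 for T cells, 2.10 to 2.25 for natural killer cells and 1.82 to 1.90 for eosinophils. It was higher for epithelium (4.07 to 4.95, with Cdh1 near 7) and ran from 3.38 to 3.72 for erythroid and from 2.61 to 2.92 for endothelial cells. The mean of 4 neutrophil markers was 2.76 and 2.72 in WT and 3.54 and 3.26 in KO, and 1 of them, S100a8, was higher in KO (3.65 and 3.43 in WT, 5.70 and 5.22 in KO). The 2 WT arrays differed for some markers, with Marco at 7.22 in replicate 1 and 4.43 in replicate 2, and Scgb1a1, a gene of airway epithelium, at 6.89 and 4.26. The part of these differences in the results below was not tested.

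KO and WT were compared with limma over all 28371 probe sets, and a probe set was called at an adjusted p (Benjamini-Hochberg) under 0.05. Of the shared probe sets, 63 were higher in KO, or 3.35%, against 5.16% of all probe sets. A further 70 were lower in KO, or 3.72%, against 4.92% of all probe sets. In either direction 7.07% of the shared probe sets were called, against 10.1% of all and 11.7% of those with 1 gene. In all 133 called probe sets both KO arrays lay beyond both WT arrays. With 2 arrays per group this was common, called or not. Both KO arrays lay above both WT arrays in 6898 and below them in 8168 of all 28371 probe sets. Among the 1881 shared ones it was 418 and 594. The 133 called probe sets stood for 106 groups of probe sets with no gene in common, 56 higher and 50 lower, since probe sets of 1 gene family repeat one another. The counts changed when 1 array was dropped, to 18 higher and 30 lower (KO replicate 1 dropped), 20 and 22 (KO replicate 2), 27 and 31 (WT replicate 1), and 47 and 46 (WT replicate 2).

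Many shared probe sets read near the bottom of the scale. In 48.6% of them all 4 values lay below the array median. Among probe sets with a group mean above the median, 13.2% of the shared ones and 20.2% of the single-gene ones were called. Differences were small in most, and 68.2% lay within 0.2 of 0 on the log2 scale. A total of 220 shared probe sets, or 11.7%, held the same 4 values as another shared probe set, against 0.756% of the single-gene probe sets, and the largest such set had 13 members. Counting equal probe sets once left 1739, of which 7.53% were called.

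**Figure D1:**
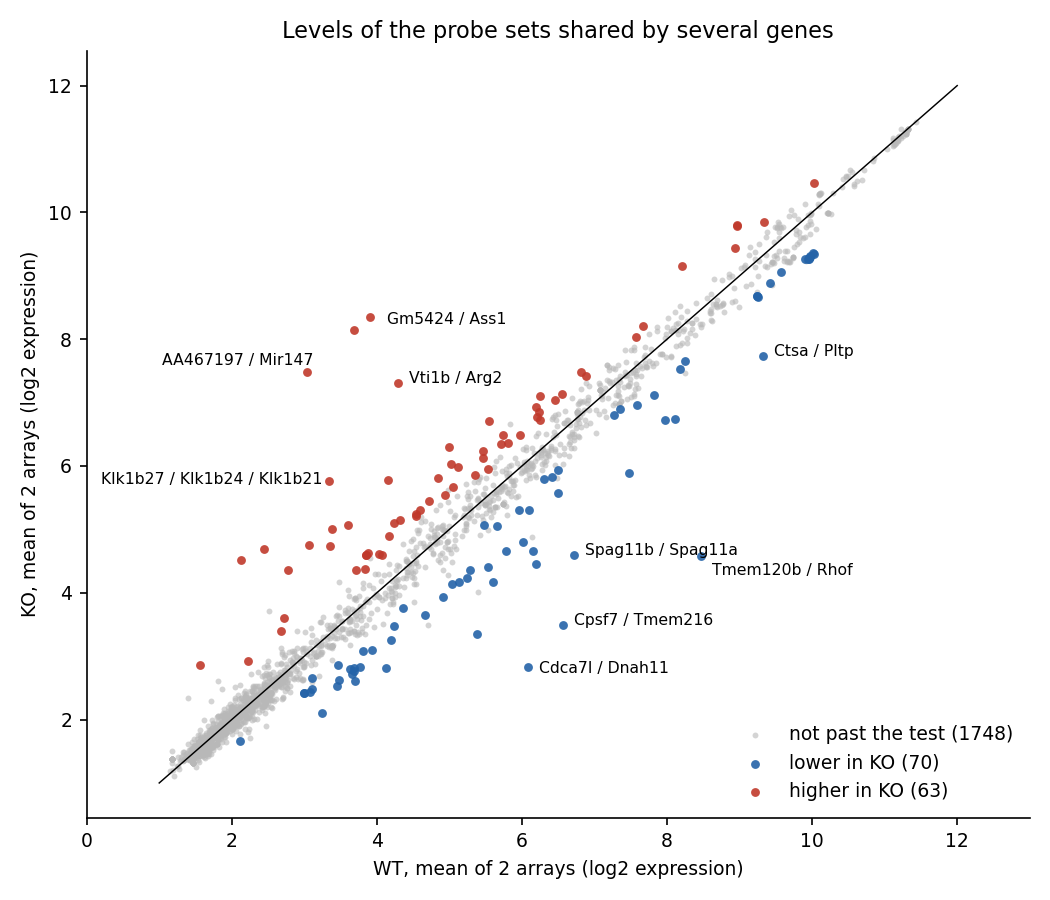
Mean log2 expression of each of the 1881 shared probe sets in WT (horizontal axis, 2 arrays) and KO (vertical axis, 2 arrays), with the line of equal levels. Red points (63) were higher and blue points (70) lower in KO at an adjusted p under 0.05 (limma), and the probe set of Ass1 and Gm5424 lies 4.45 above the line.

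Calls were not spread evenly over the kinds of sharing. Of 573 probe sets whose genes have unlike names, 26 were higher and 42 lower, or 11.9% in all. Of 667 whose genes are copies by name, 15 were higher and 21 lower, or 5.40%. Of 406 that pair a named gene with a predicted one, 17 were higher and 7 lower. The copies by name were dimmer, with 27.1% above the array median in a group, against 74.9% of those with unlike names. Among the probe sets above it the order was reversed, with 18.8% of the copies and 14.5% of the unlike names called. By position in the annotation, 12.2% of 622 probe sets whose genes overlap were called, against 3.63% of 468 with genes apart but within 100 kb. The overlapping class lay nearer the background of 10.1%, and it was brighter, with 67.4% of its probe sets above the array median in a group against 40.8%. The difference between these classes was not tested.

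**Figure D2:**
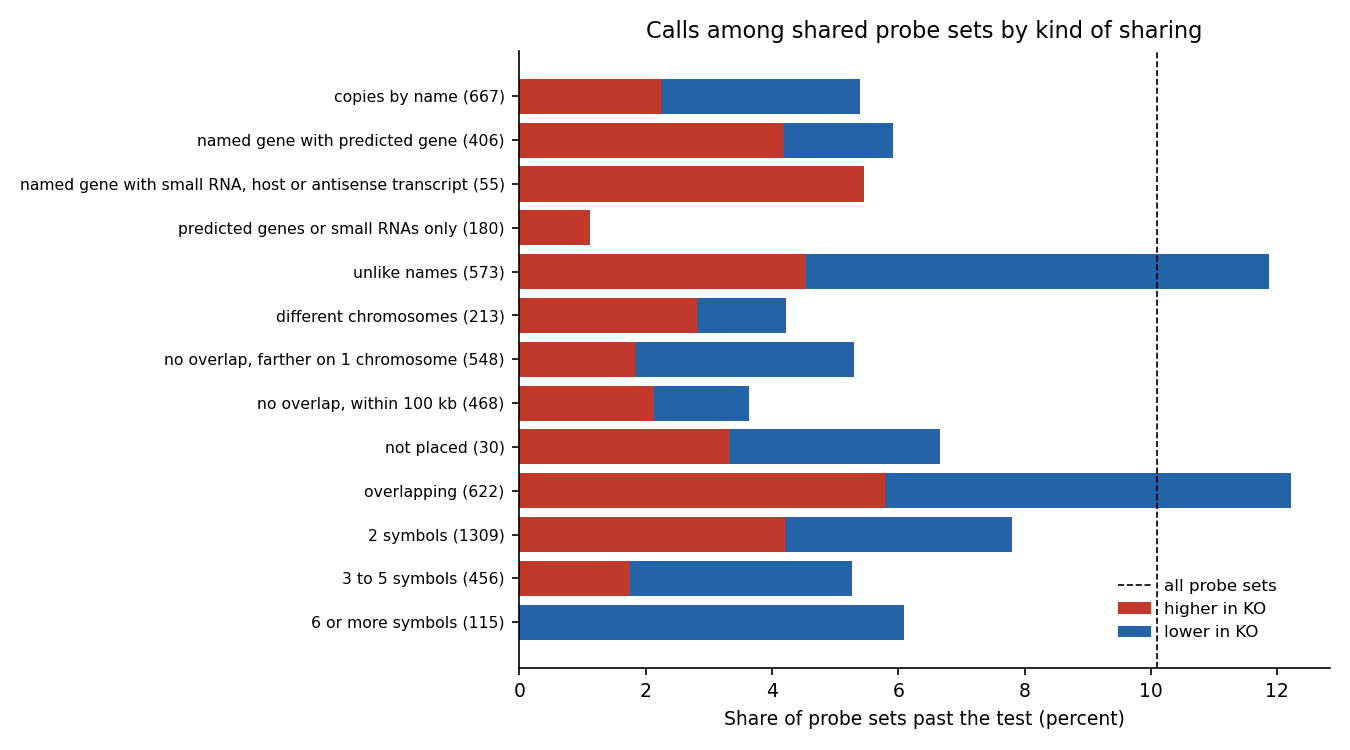
Share of shared probe sets higher (red) and lower (blue) in KO, in percent, by how the genes are related, where they lie, and how many symbols they carry (number of probe sets in parentheses). The dashed line marks the 10.1% called among all probe sets, and only the classes of unlike names (11.9%) and overlapping genes (12.2%) pass it.

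The largest increase lay on the probe sets of Ass1. It encodes argininosuccinate synthase, which rebuilds arginine from citrulline, and the predicted gene Gm5424 lies on another chromosome. Their first shared probe set read 3.66 and 3.71 in WT and 8.28 and 8.0 in KO, a difference of 4.45 ± 0.12 (SE) or 21.9-fold (limma adjusted p = 9.96e-05). The second read 3.87 and 3.95 in WT and 8.47 and 8.22 in KO, a difference of 4.43 ± 0.12 (SE; limma adjusted p = 9.96e-05). The groups stood far apart on both, and Ass1 had no probe set of its own. Arg2, the mitochondrial arginase, shares its probe set with the overlapping Vti1b, a membrane fusion protein of endosomes. This probe set read 3.82 and 4.76 in WT and 7.24 and 7.37 in KO, a difference of 3.02 ± 0.30 (SE; limma adjusted p = 0.00413). The WT arrays differed from each other by more than the KO arrays, and both were below the KO arrays. A second probe set of Vti1b;Arg2 read 6.33 and 6.13 in WT and 6.47 and 6.56 in KO and did not pass the test. The 3 calls on Ass1 and Arg2 held with any 1 array left out.

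The probe set shared by Mir147 gave a change of like size. Its partner carries the placeholder name AA467197 and overlaps Mir147, and the probe set read 3.14 and 2.92 in WT and 7.91 and 7.05 in KO. The difference was 4.45 ± 0.28 (SE; limma adjusted p = 0.00113), or 21.8-fold. Of 80 shared probe sets with a small RNA or its host, 3 were higher and none was lower, or 3.75%, against 5.16% higher among all probe sets. The other two were Mir678 with Prmt2, an arginine methyltransferase (4.86 and 4.83 in WT, 6.00 and 5.61 in KO), and Mir22 with its host Mir22hg (6.19 and 6.19 in WT, 6.90 and 6.96 in KO). Their differences were 0.96 ± 0.15 (SE; limma adjusted p = 0.017) and 0.74 ± 0.09 (SE; limma adjusted p = 0.00782). Mir678 with Prmt2 lost its call without KO replicate 1 (adjusted p = 0.0557), WT replicate 1 (0.0619) or WT replicate 2 (0.0556), and Mir22 without KO replicate 1 (0.053) or 2 (0.0637), in limma.

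Other large increases lay on probe sets whose single-gene partners could be read in part. The kallikreins Klk1b27, Klk1b24 and Klk1b21, serine proteases encoded side by side, share a probe set that read 3.13 and 3.56 in WT and 5.66 and 5.88 in KO. The difference was 2.42 ± 0.17 (SE; limma adjusted p = 0.00163). The probe set with Klk1b27 alone differed by 0.36 ± 0.22 (SE; limma adjusted p = 0.427), and that with Klk1b24 alone by -0.06 ± 0.20 (SE; limma adjusted p = 0.914). Complement component C4 is encoded by C4a and C4b, whose shared probe set read 2.94 and 2.62 in WT and 4.79 and 3.95 in KO, a difference of 1.58 ± 0.28 (SE; limma adjusted p = 0.0265). The call on C4 was lost without KO replicate 1 (limma adjusted p = 0.0554), WT replicate 1 (0.0587) or WT replicate 2 (0.0836), and the probe set with C4a alone differed by 0.12 ± 0.16 (SE; limma adjusted p = 0.747). Stab1, a scavenger receptor, overlaps Nt5dc2, and their probe set read 3.85 and 4.48 in WT and 5.87 and 5.70 in KO. Its difference of 1.62 ± 0.22 (SE; limma adjusted p = 0.0102) was not called without KO replicate 1 (0.0855) or 2 (0.0689), and the probe set with Stab1 alone rose by 0.93 ± 0.09 (SE; limma adjusted p = 0.00393). Fst encodes follistatin, which binds activin, and its probe set with Thrap3 read 3.65 and 3.55 in WT and 5.22 and 4.93 in KO. Thrap3 alone, at 7.97 and 7.86 in WT and 7.64 and 7.88 in KO, did not pass the test.

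Among the rest of the 15 largest increases, Chdh, a choline dehydrogenase, overlaps the calcium channel gene Cacna1d, and their probe set read 2.04 and 2.21 in WT and 4.63 and 4.40 in KO (difference 2.39 ± 0.12 (SE); limma adjusted p = 0.000649). Chn2, a Rac-inactivating chimaerin, with 9130019P16Rik read 2.5 and 2.38 in WT and 4.89 and 4.48 in KO (difference 2.24 ± 0.16 (SE); limma adjusted p = 0.00161). On both probe sets the WT values lay below the array median. Card14 with the lysosomal sulfamidase Sgsh differed by 1.69, Dcbld2 with the sialyltransferase St3gal6 by 1.39, the F-box gene Fbxl2 with Ubp1 by 1.31, and the leucine-rich repeat genes Lrrc34 and Lrriq4 by 1.28. The call on Dcbld2 and St3gal6 was lost without KO replicate 1 (limma adjusted p = 0.108) or 2 (0.112), while the probe set with Dcbld2 alone rose by 0.83. Tagap1 and Tagap, genes of GTPase-activating proteins, read 5.46 and 5.64 in WT and 6.68 and 6.73 in KO on their shared probe set, a difference of 1.16, and the probe set with Tagap alone rose by 2.34 ± 0.15 (SE; limma adjusted p = 0.00112).

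**Figure D3:**
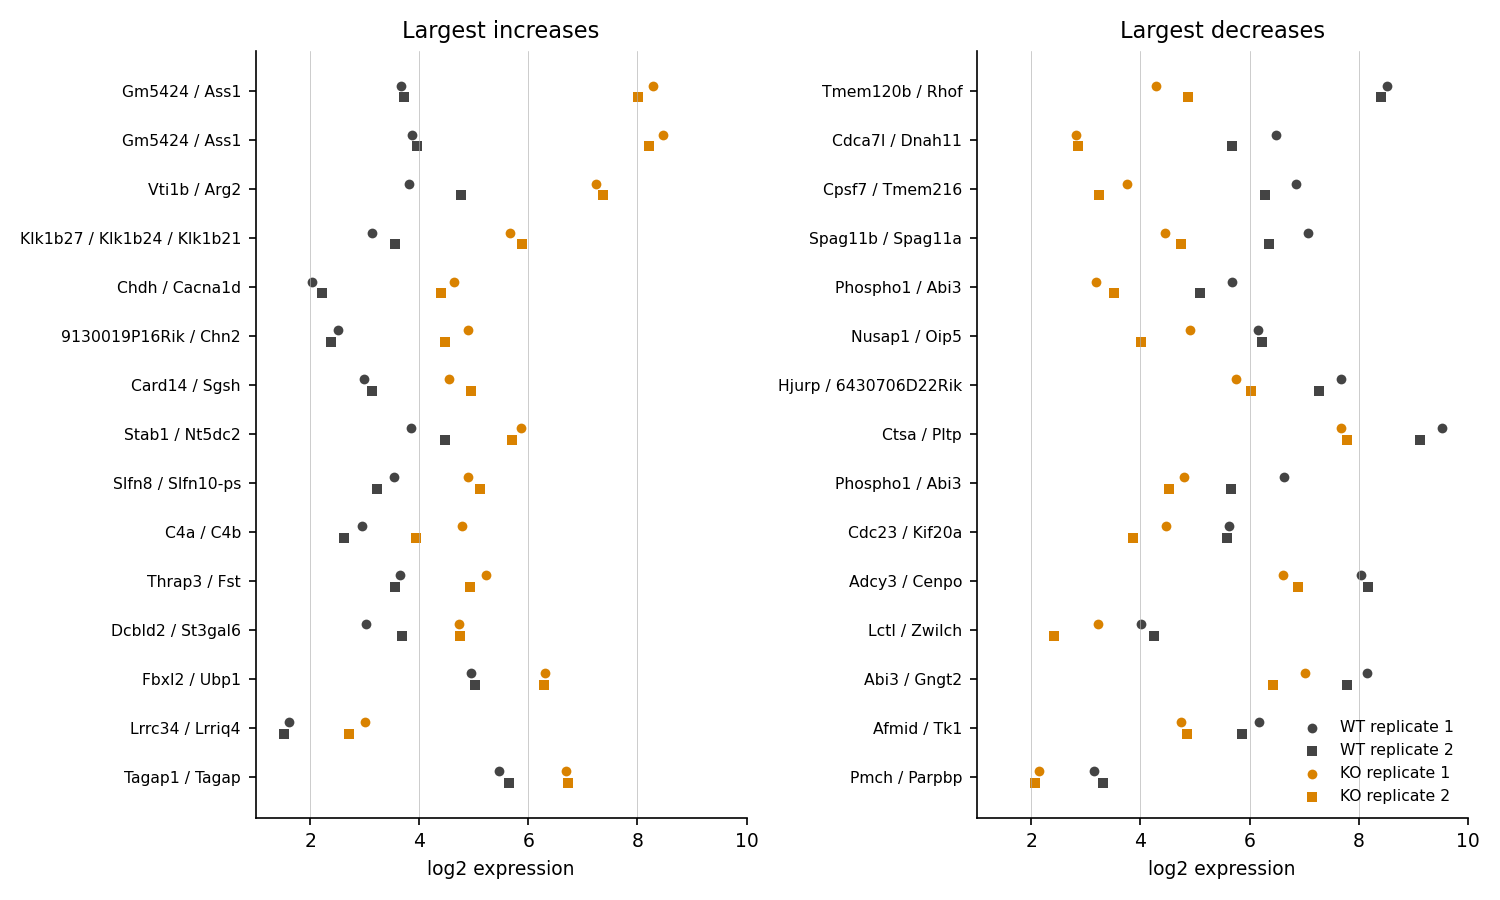
Log2 expression on each array for the 15 shared probe sets with the largest increase (left) and the 15 with the largest decrease (right), sorted by the size of the difference. Grey marks are WT and orange marks KO, circles replicate 1 and squares replicate 2. The rows were chosen among called probe sets whose groups do not overlap.

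The largest decrease lay on a pair of overlapping genes that could be told apart in part. Rhof encodes a small GTPase of filopodia and Tmem120b a membrane protein, and the genes run toward each other on opposite strands. Their shared probe set read 8.52 and 8.40 in WT and 4.29 and 4.87 in KO, a difference of -3.88 ± 0.20 (SE; limma adjusted p = 0.000639), so WT was 14.8-fold above KO. The probe set with Tmem120b alone read 6.31 and 6.36 in WT and 7.08 and 7.05 in KO, an increase of 0.73 ± 0.09 (SE; limma adjusted p = 0.00808). The shared reading and that of Tmem120b thus moved in opposite directions, and Rhof had no probe set of its own.

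The other large decreases lay on genes of unlike roles. Pltp encodes the phospholipid transfer protein and overlaps Ctsa, a lysosomal carboxypeptidase. Their probe set read 9.52 and 9.12 in WT and 7.67 and 7.80 in KO, a difference of -1.59 ± 0.15 (SE; limma adjusted p = 0.00384). Ctsa alone read 10.65 and 10.58 in WT and 10.66 and 10.56 in KO. Cpsf7, a subunit of the machinery that cleaves pre-mRNA at its 3′ end, overlaps Tmem216, a gene of the primary cilium. Their probe set read 6.85 and 6.28 in WT and 3.76 and 3.23 in KO, a difference of -3.07 ± 0.25 (SE; limma adjusted p = 0.00242), whereas the probe set with Cpsf7 alone differed by -0.12 ± 0.19 (SE; limma adjusted p = 0.77). Abi3, an adaptor of actin assembly, lies on 3 called probe sets, of which 2 are shared with the phosphatase gene Phospho1 and 1 with the G protein subunit Gngt2. The first with Phospho1 read 5.68 and 5.10 in WT and 3.19 and 3.51 in KO, a difference of -2.04 ± 0.22 (SE; limma adjusted p = 0.00519). The second differed by -1.48 and lost its call without KO replicate 1 (limma adjusted p = 0.157) or 2 (0.214), and the probe set with Gngt2 differed by -1.25 and lost it without KO replicate 2 (0.0951) or WT replicate 1 (0.0936). Spag11b and Spag11a, defensin-like genes known from the epididymis, read 7.08 and 6.36 in WT and 4.44 and 4.74 in KO on their shared probe set, a difference of -2.13 ± 0.25 (SE; limma adjusted p = 0.0069) that missed the threshold without KO replicate 1 (0.0636). The probe set with Spag11a alone read 3.02 and 2.75 in WT and 3.13 and 3.0 in KO and did not pass the test. Pilrb1 and Pilrb2, whose upstream windows are printed above and which were named after their values were seen, differed by -0.93 ± 0.10 (SE; limma adjusted p = 0.005) on their shared probe set, and the probe set with Pilrb1 alone by -1.08.

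Both shared probe sets of Nr1d1 and Thra were lower in KO. Nr1d1 encodes the clock repressor REV-ERBα and Thra the thyroid hormone receptor α, and these nuclear receptor genes overlap in the annotation. The first read 5.84 and 5.73 in WT and 4.72 and 4.60 in KO, a difference of -1.12 ± 0.10 (SE; limma adjusted p = 0.00319). The second read 4.69 and 4.64 in WT and 3.68 and 3.60 in KO, a difference of -1.02 ± 0.09 (SE; limma adjusted p = 0.00326). Both calls held with any 1 array left out.

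Genes named for cell division were described as a list. Of its 16 shared probe sets, with cyclin, cell division cycle, kinesin or centromere genes, 6 were lower and 1 was higher, or 37.5% and 6.25%, against 4.92% and 5.16% of all probe sets, with a median difference of -0.44, against medians of -0.03 over all shared and -0.02 over all probe sets. Of 199 single-gene probe sets of these genes, 59 were lower and 9 higher, or 29.6% and 4.52%. Kif3c, a transport kinesin, had been removed from the list by hand after the annotation was read and with results of these data known. With its 2 probe sets put back, 6 were lower and 2 higher of 18, with a median of -0.31, since 1110002L01Rik;Kif3c rose by 0.88 ± 0.15 (SE; limma adjusted p = 0.0205) on 1 of them (2.68 and 2.76 in WT, 3.41 and 3.79 in KO). The shared count lower was 3 without KO replicate 2 and 3 without WT replicate 1. Cdca7l, whose name marks it as associated with cell division, shares 2 probe sets with the dynein gene Dnah11. The first read 6.49 and 5.68 in WT and 2.82 and 2.86 in KO, a difference of -3.25 ± 0.26 (SE; limma adjusted p = 0.00228), and the second differed by -0.55. Cenpo, a kinetochore subunit, with Adcy3 read 8.04 and 8.18 in WT and 6.61 and 6.89 in KO, a difference of -1.36 ± 0.13 (SE; limma adjusted p = 0.00353). Kif20a, a kinesin of the final step of division, with Cdc23 read 5.62 and 5.59 in WT and 4.48 and 3.87 in KO, a difference of -1.43 ± 0.20 (SE; limma adjusted p = 0.0126). Other probe sets of these genes were not called, with differences of -0.32 for a second Adcy3;Cenpo, 0.09 for Ptrhd1;Cenpo and -0.10 for a second Cdc23;Kif20a. On the called ones KO replicate 2 lay below KO replicate 1 for Kif20a and above it for Cenpo. The member that was higher pairs Cdk17 with the transcription factor Elk3 (6.52 and 6.60 in WT, 7.20 and 7.06 in KO), a call lost with any 1 array left out, and a second probe set of this pair differed by 0.08 and was not called.

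Among the 15 largest decreases, Hjurp, the chaperone that loads the centromeric histone, with 6430706D22Rik read 7.67 and 7.28 in WT and 5.74 and 6.02 in KO, a difference of -1.59 ± 0.17 (SE; limma adjusted p = 0.00519). Nusap1, a spindle protein, and Oip5, a factor of centromere assembly, start 207 bases apart on opposite strands. Their probe set read 6.15 and 6.24 in WT and 4.90 and 4.0 in KO, a difference of -1.74 ± 0.29 (SE; limma adjusted p = 0.0201), which was not called without WT replicate 1 (0.0651) or 2 (0.0618). Tk1, the thymidine kinase that salvages a DNA precursor, with Afmid read 6.17 and 5.86 in WT and 4.75 and 4.86 in KO, a difference of -1.21 ± 0.13 (SE; limma adjusted p = 0.00554). The probe sets with Tk1 alone fell by 1.51 and by 1.67, more than the shared one. A second probe set of Nusap1;Oip5 read between 2.35 and 3.12 and did not pass the test. The call on Tk1 and Afmid missed the threshold without KO replicate 1 (limma adjusted p = 0.0539). Zwilch, a checkpoint protein of the kinetochore, with Lctl differed by -1.30 and lost its call without KO replicate 2 (limma adjusted p = 0.0693), WT replicate 1 (0.0869) or WT replicate 2 (0.116). Parpbp, a regulator of recombination, with Pmch differed by -1.14 and kept its call in each of these fits. Fewer dividing cells and less RNA per cell cannot be told apart in pooled samples.

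The histone genes were the family with the most called members. Histones package DNA, and the clustered genes for H2A, H2B, H3 and H4 are transcribed mainly while DNA is copied. Of 55 shared histone probe sets, 12 were lower, none was higher, and 43 did not pass the test, so 21.8% were lower against 4.92% of all probe sets. The median difference was -0.29. These probe sets list up to 11 overlapping symbols, so they repeat nearly the same reading. All 10 probe sets of the clustered H3 genes lay between -0.59 and -0.70, and 8 of them were called. Their values ran from 9.39 to 10.07 in WT, from 9.07 to 9.54 in KO replicate 1 and from 8.66 to 9.20 in KO replicate 2. Of 6 H4 probe sets, 4 were called, with differences of -0.51 to -0.56. The 13 H2A probe sets differed by -0.23 to -0.47 and the 7 H2B probe sets by -0.23 to -0.32, and none of either was called, with limma adjusted p from 0.0693 upward. In every one of the 10 H3, 13 H2A and 7 H2B probe sets both KO arrays lay below both WT arrays and KO replicate 2 lay below KO replicate 1. Both KO arrays lay below both WT arrays in 8168 of all 28371 probe sets. The histone probe sets are not separate observations, since they repeat nearly the same reading. The 14 probe sets of the germ-line H2al genes read between 1.75 and 2.83 and had a median difference of -0.06.

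The histone calls depended on single arrays and on the block. The count lower was 6 without KO replicate 1 and 0 without KO replicate 2, without WT replicate 1 or without WT replicate 2, in limma. It was 2 with the replicate number as a block and 29 with the variance trend on intensity. Among single-gene histone probe sets, 6 of 53 were lower. H4c6 alone read 6.13 and 6.06 in WT and 5.09 and 4.88 in KO, a difference of -1.11 ± 0.11 (SE; limma adjusted p = 0.00413), and H2ac15 alone differed by -0.64 ± 0.12 (SE; limma adjusted p = 0.031). Other genes of the called H4 probe sets were not called alone, with differences of -0.37 for H4c3, -0.27 for H4c8 and -0.02 for H4c9. For H2B, H2bc14 alone differed by -0.39 and H2bc4 by 0.27 on the brighter of its probe sets, and neither was called. H3c4 and H3c7 alone read between 1.24 and 3.5 and did not pass the test. H3c15 alone read between 1.88 and 2.43, with a difference of 0.32, and was not called. For these clustered H3 genes the bright readings thus came from shared probe sets. H3f3a, which is not among them, read 9.30 and 9.22 in WT and 9.24 and 9.23 in KO on its brightest single-gene probe set. Its difference there was -0.03, and its probe set shared with Gm12657 also differed by -0.03. Neither was called.

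**Figure D4:**
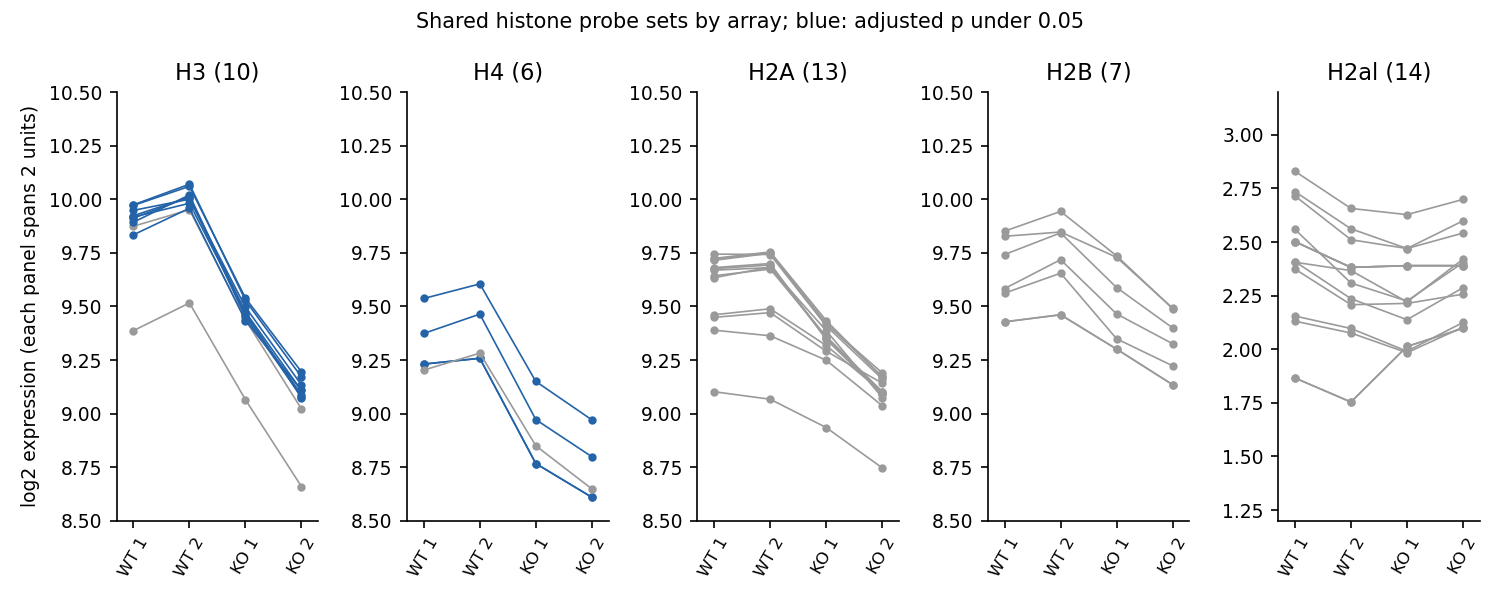
Log2 expression of shared histone probe sets on the 4 arrays, 1 line per probe set, by the histone they encode (number in parentheses), blue where the adjusted p was under 0.05. Each panel spans 2 log2 units, H2al on a lower range than the others. All H3 lines (-0.59 to -0.70) drop from WT to KO, and 1 H4 probe set at 2.13 to 2.55 lies outside its panel.

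The upstream windows of these histone genes carry recognisable elements, shown for H3c2 and H3c6, which sit together on called H3 probe sets, and for Oip5. The 250 bases before the start are from RefSeq (GRCm38.p6) on the gene strand. They lie at chr13:23752095-23752344 (plus strand) for H3c2, chr13:23562386-23562635 (minus strand) for H3c6 and chr2:119618506-119618755 (minus strand) for Oip5, with matches on either strand to CCAAT, to TATAAA and to TTTGAA in capitals. On the opposite strand a match to CCAAT reads ATTGG. The searched words do not overlap each other in these windows.
H3c2: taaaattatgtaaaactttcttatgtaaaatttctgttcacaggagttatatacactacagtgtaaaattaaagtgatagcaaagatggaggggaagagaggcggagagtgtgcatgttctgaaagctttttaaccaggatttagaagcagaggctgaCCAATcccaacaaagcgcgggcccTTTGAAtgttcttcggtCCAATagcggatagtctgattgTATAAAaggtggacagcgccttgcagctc
H3c6: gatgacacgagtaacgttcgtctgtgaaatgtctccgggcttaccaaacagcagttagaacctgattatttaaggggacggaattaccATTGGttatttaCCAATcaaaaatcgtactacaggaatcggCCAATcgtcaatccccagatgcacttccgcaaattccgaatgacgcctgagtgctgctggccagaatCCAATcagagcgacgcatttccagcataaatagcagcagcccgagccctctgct
Oip5: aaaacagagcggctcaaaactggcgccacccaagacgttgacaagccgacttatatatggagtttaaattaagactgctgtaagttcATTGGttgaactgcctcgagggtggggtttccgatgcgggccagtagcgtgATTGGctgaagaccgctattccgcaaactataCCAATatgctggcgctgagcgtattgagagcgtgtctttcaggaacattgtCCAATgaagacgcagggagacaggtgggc
H3c2 has 2 CCAAT matches and H3c6 and Oip5 have 4 each. CCAAT was present in 77.8% of 45 windows of clustered histone genes and in 33.9% of 32851 windows of all genes. TATAAA was present in 37.8% and 12.4%, and TTTGAA in 40.0% and 16.0%. TTGGCGC or TTCCCGC, which were also searched, was present in 8.89% and 5.62%, and in none of the printed windows. Over the genes of shared probe sets lower in KO, 36.9% of 111 windows held CCAAT, close to the share over all genes. Across 45 pairs of H3 genes the windows had a median identity of 45.99%. A match is a description of letters, and binding was not measured.

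Lists of interferon-induced copies were small. Schlafen genes are induced by interferon, and the probe set of Slfn8 and Slfn10-ps read 3.54 and 3.24 in WT and 4.89 and 5.11 in KO, a difference of 1.61 ± 0.14 (SE; limma adjusted p = 0.00316). Slfn8 alone rose by 1.99, while that shared by Slfn8 and Slfn9 read 4.70 and 4.36 in WT and 4.14 and 4.13 in KO and did not pass the test. Of 16 shared probe sets of interferon-induced copies 2 were higher, or 12.5% against 5.16% of all, and the second, Oas1a with Oas1g, differed by 0.60 ± 0.09 (SE; limma adjusted p = 0.0159) and was not called in any fit with 1 array left out (limma adjusted p = 0.0527 to 0.10). Among the interferon-inducible GTPases 1 of 7 was higher, or 14.3%, that of Gbp11, Gbp10 and Gbp6 (4.54 and 4.53 in WT, 5.15 and 5.28 in KO), which held its call without WT replicate 2 alone. The list does not name Gvin1, a very large GTPase of this kind, and adding its 3 probe sets after their values were seen gave 1 higher and 1 lower of 10. The lower one, Gm4070;Gvin1, read 7.72 and 7.46 in WT and 6.89 and 7.04 in KO, a difference of -0.63 ± 0.13 (SE; limma adjusted p = 0.038). The DNA sensor genes Ifi211 and Ifi204 read 6.14 and 6.35 in WT and 7.10 and 7.09 in KO on their shared probe set, a difference of 0.85.

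Paired receptors of myeloid cells were called in both directions. All 8 shared probe sets of the Lilra6 and Pira, Sirpb1 and Cd300ld receptors had positive differences, from 0.08 to 0.51, and the 2 with Lilra6 were called, or 25% against 5.16% higher among all probe sets. The list of these 8 does not name the Pilr receptors, and adding them, a choice made after their values were seen, gave 2 higher and 2 lower of 10. Both of the added ones were lower, Pilrb2;Pilrb1 by -0.93 and Zcwpw1;Pilra by -0.83 (3.56 and 3.70 in WT, 2.77 and 2.84 in KO), and Pilra alone differed by -0.80. Of the 2 called probe sets with Lilra6, the one with the larger difference (0.51), Gm10693;Lilra6, read 8.84 and 9.02 in WT and 9.41 and 9.48 in KO. The probe set with Lilra6 alone differed by 0.80 ± 0.26 (SE; limma adjusted p = 0.134), and neither shared one was called with any array left out. Among major histocompatibility genes, none of 6 class I probe sets passed the test, with differences from -0.17 to 0.40 and a smallest limma adjusted p of 0.0596. The brightest of these, H2-D1 with H2-K1, read 10.68 and 10.57 in WT and 10.52 and 10.47 in KO.

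Ribonuclease T2 and the chemokine Ccl27a were each called on more than 1 probe set. Rnaset2a and Rnaset2b, lysosomal ribonucleases, read 8.93 and 9.01 in WT and 9.80 and 9.80 in KO on the first of 2 shared probe sets, a difference of 0.84 ± 0.09 (SE; limma adjusted p = 0.00558), and the second differed by 0.82. The first held its call with any 1 array left out, and the second missed it without KO replicate 1 (limma adjusted p = 0.0501) or 2 (0.0509). Ccl27a, a chemokine gene with several predicted copies, was on 4 of 9 shared chemokine probe sets, and 3 of the 9 were higher, or 33.3% against 5.16% of all. The first of these read 4.28 and 4.36 in WT and 5.21 and 5.10 in KO, and the other two held equal values on all 4 arrays (3.81 and 3.90 in WT, 4.68 and 4.51 in KO). The fourth, Gm3893;Gm21953;4933409K07Rik;Ccl27a, read 2.32 and 2.40 in WT and 2.41 and 2.33 in KO and was not called. The 3 calls were lost without KO replicate 1, 2 were lost without KO replicate 2, and 2 without WT replicate 1.

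Families of abundant or silent genes showed few calls. All 24 probe sets shared by Gapdh, a glycolytic enzyme, and its predicted copies lay between -0.06 and -0.01 at levels of 10.77 to 11.44. Of 64 shared ribosomal protein probe sets 1 was higher, or 1.56% against 5.16% of all probe sets. It pairs Rps25 with Ccdc84 (difference 0.55), and the 6 probe sets with Rps25 alone differed by -0.06 to 0.10. Of 127 shared olfactory receptor probe sets 4 were lower, or 3.15% against 4.92% of all probe sets. They lay at levels of 1.63 to 4.26, and 3 of these belong to the group around Olfr1380. The first of that group read 4.19 and 4.21 in WT and 3.16 and 3.34 in KO, whereas the probe set with Olfr1382 alone read between 1.44 and 1.97. None of 89 vomeronasal and taste receptor, 31 T cell receptor or 16 immunoglobulin probe sets was called, against 10.1% of all probe sets. Only 4 of the 127 olfactory and none of the 89 vomeronasal and taste receptor probe sets had a group mean above the array median. Of 2 immunoglobulin lambda probe sets with Iglc1, Iglv2 and Iglv1, 1 read 5.03 in KO replicate 1 and between 2.40 and 2.60 on the other arrays. The 4 haemoglobin probe sets read between 3.37 and 5.53 without a call.

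Probe sets with 1 gene were used to see whether a partner could be read on its own. Of the 63 shared probe sets higher in KO, 24 had such a probe set for at least 1 of their genes, and it was also higher for 8, lower for none, and not called for 16. Of the 70 lower, 37 had one, and it was also lower for 10, not called for 26, and higher for 1, Tmem120b. The probe set with H4c6 alone counts more than once among these 10. Of all single-gene probe sets, 6.05% were higher and 5.68% lower. Of 921 uncalled shared probe sets with a single-gene partner, 30 had one that was higher and 49 one that was lower. For 39 of the higher and 33 of the lower probe sets no gene had a reading of its own, Ass1 and Arg2 among them. Rhof and Pltp could be set only against their partners, Tmem120b and Ctsa.

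**Figure D5:**
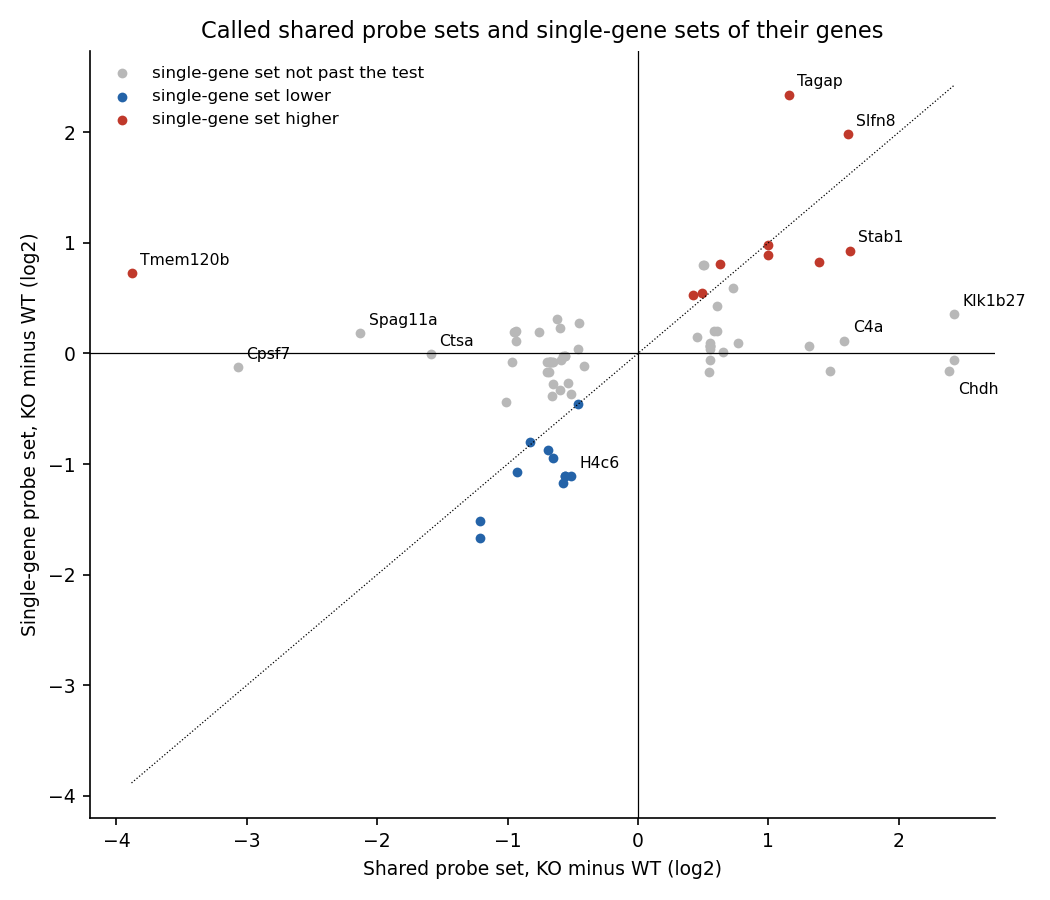
Difference between KO and WT (log2) of each called shared probe set (horizontal axis) and of a single-gene probe set of one of its genes (vertical axis), 1 point per pair, with the dotted line of equal differences. Colours give the call on the single-gene probe set, and Tmem120b (shared -3.88, alone 0.73) is the point with opposite calls.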

How the data were processed

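RNA of 4 samples of sorted alveolar macrophages was hybridised to Affymetrix arrays (2 WT, 2 KO, each a pool from 2 mice). Each deposited value is the log2 expression of 1 probe set. The submitters' processing notes name RMA, run in R 2.15.2. RMA equalises the arrays, so a change common to most transcripts would not be seen, and low values are compressed. Neither the genome build of the array nor its summary settings were given in the sources at hand. No value was rescaled or filtered. KO minus WT was fitted with limma 3.58.1 in R 4.3.3, group as the only term, two-sided, over 28371 probe sets, with Benjamini-Hochberg adjustment over all. The fit had 2 residual and 3.51 prior degrees of freedom, and the number of arrays limits precision. Errors are standard errors of the fit. The procedure was tested on simulated data.

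Genes were named from the platform annotation, and 2568 of 2591 Entrez identifiers were found in RefSeq (GRCm38.p6), which gave positions and sequences. Named probe sets were the 15 largest called increases and 15 largest called decreases with at least 1 gene that is not a placeholder. Both KO arrays also had to lie beyond both WT arrays, as they did in all 133 called probe sets. Up to 4 were named per family with 3 or more shared probe sets (up to 2 where none was called). The single-gene probe sets of their genes could be named with them. Ifi204, Pilrb1, Pilra, Gvin1, Kif3c, Ptrhd1, Elk3, Slfn9, H2-D1, H2ac15, H2bc14, H2bc4, H3c4, H3c7 and the second probe sets of Cdca7l and Elk3 were named after their values were seen. So were H3c15, H3f3a and Gm12657. Families were matched by symbol, and some matches, Kif3c among them, were removed after reading the annotation. The members and lists were chosen with earlier results of these data known. Alternatives covered the replicate number as a block, each array left out, normalization, a filter on dim probe sets, the moderation of variance, and the rule for members.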

Additional observations from a re-analysis of the deposited data

How the results depend on the processing

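The 63 probe sets higher and 70 lower in KO became 59 and 58 with the replicate block. The numbers are shared only by name, since the differences between replicates 1 and 2 of WT and KO correlated at -0.05. Leaving out 1 array gave 18 to 47 higher and 22 to 46 lower. Testing against a difference of 0.5 left 14 higher and 12 lower. Without variance moderation limma called 0 higher and 11 lower, with 277 shared probe sets at an unadjusted p under 0.05. The 11 are Gapdh probe sets whose deposited values are equal within each group. The intensity trend gave 131 lower. Requiring 2 or more named genes left 41 higher. Quantile normalization, median centring, the dim filter, robust moderation, named probe sets only and members with 2 or more symbols kept both counts within 1.5 times. Of 66 named and called probe sets, none reversed in any fit run, 57 kept their call with the block, and 30 to 46 with 1 array left out. The lack of reversals carries no weight for the fits with 1 array left out. Both KO arrays lay beyond both WT arrays in every called probe set, so no reversal was possible there. Settings of the variance moderation and the test against 0.5 leave the difference itself unchanged. So do the replicate block, in this balanced design, and the fits on fewer probe sets. Median centring shifts all differences by the same amount. Without moderation 0 of the 66 kept their call. Shared probe sets near the array median of 3.14 have little signal over background, so a difference there may be understated. Chosen after seeing the data, adding Kif3c to the division list gave 2 higher, and adding Pilr genes and Gvin1 to their lists gave 2 and 1 lower.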
